A study of Saccharomyces cerevisiae with 4 samples.

Results

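Spo11 oligos of 33 to 40 nt are the longer neighbours of the commonest products released from meiotic breaks in budding yeast. They were taken as all listed reads whose end minus start plus 1 lay from 33 to 40, and they numbered 434516 of 2024944 uniquely mapped reads. Reads of 25 to 32 nt, the modal class, numbered 1212681 and served for comparison. The series covers diploid SK1 yeast, a strain that sporulates fast and synchronously, after 4 h in sporulation medium. All cells carried SPO11 with an HA3-His6 tag linked to kanMX and were homozygous for lys2, ura3, arg4-Nsp, a leu2 gene replaced with hisG, LYS2 inserted in ho, LEU2 at his4X, and a nuc1 deletion marked by LEU2. From one culture 3 technical datasets were made (1A, 1B and 1C) and from another culture a single one (2), with the same genotype and treatment, and no untreated or mutant control was analysed here.

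The reads of the 4 datasets stand in one list, and the names of the reads show 4 sequencing runs of 395612 to 587674 reads. Which run holds which dataset is not labelled, so values by run are a spread over sequencing runs and not replicates. Differences between runs cannot be told apart from differences between datasets or cultures, and no p-value was computed. The share of 33 to 40 nt reads is given below as a percentage of reads of 25 to 40 nt, with its 95% Wilson interval or, for a difference of shares, a 95% Newcombe interval. These intervals cover counting error only, because PCR copies of one molecule were not marked. Coordinates are those of the list, which names the S288C genome but no build. A tail of ribo-G was added to each 3′ end before ligation, per the labels, so an end next to a G can be misplaced when tails are trimmed, which was not tested. If the listed start is the base before the read, every length and every strand offset given below is 1 smaller, which the list does not settle.

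Spo11 cuts DNA by attaching itself to the 5′ end of each strand, much as a topoisomerase does. The Mre11 complex with Sae2 then nicks the strand nearby and frees Spo11 with a short oligo attached. The 5′ end of an oligo therefore marks a Spo11 cut, whereas its length depends on where its 3′ end was made. Fragments cut by Spo11 at both ends have also been described in yeast.

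Lengths within the class did not fall away evenly. Reads of 33 nt were commonest (94950 reads, 21.9% of the class), followed by 34 nt with 79358 and 35 nt with 64797. Reads of 36 nt (59950) and 37 nt (53508) were almost as many, and then the counts dropped to 38560 at 38 nt, 25050 at 39 nt and 18343 at 40 nt. Expressed as steps, the count fell by 18.3% from 34 to 35 nt, by only 7.48% to 36 nt and 10.7% to 37 nt, and by 27.9% to 38 nt and 35% to 39 nt. The same shoulder stood in each of the 4 runs: the step to 36 nt was 5.78 to 9.46% and the step to 39 nt 32.8 to 38.2%. The class had a mean length of 35.5 ± 2.06 nt (SD over its reads) and the modal class 28.7 ± 1.97 nt.

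The class made up 26.4% of reads of 25 to 40 nt (26.3 to 26.4%). Run E8YXO9P had 85994 such reads and a share of 26.6%. Run FE8RWPF had 130116 and 27.6%, and FIDXMPL had 109243 and 27.4%. Run FFA0GWK had 109163 and the lowest share, 24.1% (23.9 to 24.2%). Within a run, the plate regions named in the reads differed less: 24% and 24.1% in FFA0GWK, 27.4 and 27.8% in FE8RWPF, 27.4 and 27.5% in FIDXMPL, and 25.4 to 26.9% over 4 regions in E8YXO9P. The gap between FFA0GWK and the other runs was thus larger than the spread between regions of any run. The authors' mapping score equalled a function of read length alone, within 0.01, for 50.4% of 33 to 40 nt reads and 55.2% of 25 to 32 nt reads. Scores below that function were found for 41.5 and 33.8% of reads. Whether mapping bears on the shares below was not tested.

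Counts of long and modal oligos went together across hotspots. Hotspots are stretches where the smoothed density of 5′ ends was at least 2.3 times the genome mean, and 3626 were called from reads of all lengths. Across them, counts of 33 to 40 nt and 25 to 32 nt reads had a Pearson r of 0.968 (Spearman rho 0.948), over points that share libraries and hotspot width. At single-base resolution, the class began at 175324 distinct positions and strands, of which 88958 (50.7%) also started a read of 25 to 32 nt. These shared positions were 27.0% of the 329422 positions of the modal class. They held 72.7% of the 33 to 40 nt reads and 60.9% of the 25 to 32 nt reads. Most positions were thin: 62.3% of those in the class and 55.3% of those in the modal class had 1 read, so incomplete sharing would arise from sampling alone and does not show different cuts. Both strands were used alike, with 50.3% of the class on the top strand and 49.8% of the modal class.

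The share of long oligos differed strongly between single positions on one strand. Among 993 positions and strands with at least 100 reads of 25 to 40 nt, the median share of 33 to 40 nt was 14.9%, with 3.57% at the 10th and 49.2% at the 90th percentile. The lowest was 0% and the highest 98.0%. The SD between positions was 19.9 points, whereas counting error alone would give 3.01 points. At 94 positions (9.47%) most reads were of 33 to 40 nt, and in 337 (33.9%) fewer than 10% were. The commonest length lay from 33 to 40 nt at 130 positions and from 25 to 32 nt at 857. Over the 919 positions with at least 10 such reads in every run, the shares of the runs correlated pairwise at 0.738 to 0.852. Pairs with FIDXMPL gave 0.738 to 0.819 and the other pairs 0.810 to 0.852. The runs include technical datasets of one culture, so these correlations partly compare the same molecules. Counting each length once per run left only 7 positions with at least 50 reads, so this spread could not be examined in that way.

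The 5 positions with most 33 to 40 nt reads show how differently lengths were spread at single positions. The one with most reads of the class lay on the bottom strand at chromosome III 211758, between BUD23, an rRNA methyltransferase gene, and ARE1, a sterol acyltransferase gene. It had 731 reads of the class among 1387 of 25 to 40 nt (52.7%, 50.1 to 55.3%). Its share was 53.0% in E8YXO9P, 51.1% in FE8RWPF, 43.6% in FFA0GWK and 60.1% in FIDXMPL. The commonest length there was 31 nt (207 reads), and 33 nt had 129.

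A top-strand position at XIII 798219, between YMR265C and RSN1, had 525 of 1422 reads in the class (36.9%, 34.4 to 39.5%). The runs gave 38.4% (E8YXO9P), 33.7% (FE8RWPF), 41.1% (FFA0GWK) and 37.7% (FIDXMPL), so they lay close together. Its lengths were split, with 331 reads of 32 nt and 260 of 33 nt but also 198 of 28 nt.

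The position at VIII 190328 on the top strand, between the Mediator gene SRB2 and NCP1, which encodes the reductase of cytochrome P450 enzymes, was mostly long. There 304 of 349 reads were of the class (87.1%, 83.2 to 90.2%), with 87.0% in E8YXO9P, 89.9% in FE8RWPF, 78.9% in FFA0GWK and 92.8% in FIDXMPL. Its commonest lengths were 37 nt (95 reads), 36 nt (94) and 38 nt (63).

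At XV 218854 on the top strand, between GPD2 of glycerol synthesis and ARG1 of arginine synthesis, 299 of 801 reads were of the class (37.3%, 34 to 40.7%). Runs differed more here than at the other 4 positions, with 45.8% in E8YXO9P, 45.0% in FE8RWPF, 22.5% in FFA0GWK and 36.5% in FIDXMPL. The leading lengths were 31 nt (167 reads), 28 nt (158) and 35 nt (131). The fifth lay at II 217215 on the bottom strand, between LDB7, a chromatin remodeller subunit gene, and PDR3, a drug resistance regulator, with 262 of 371 reads (70.6%, 65.8 to 75%). Its runs ranged from 62.5 to 78.6%, and 36 nt (104 reads) and 35 nt (88) led.

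Cuts 1 to 5 bp apart on one strand overlapped more in their 3′ ends than in their lengths, and cuts further apart did not. This was measured as the overlap of 2 read distributions (the sum of the smaller share at each value), over positions with at least 100 reads and lengths of 20 to 48 nt. For 18 pairs of positions 1 bp apart, 3′ ends overlapped by 72.9 ± 10.1% (SD) and lengths by 45.6 ± 16%, and the 3′ ends overlapped more in 18 of 18 pairs. At 2 bp the values were 73.0 ± 10.6% and 37.6 ± 15%, again with the 3′ ends ahead in 14 of 14 pairs. At 4 bp they were 62.3 ± 14.4% and 31.6 ± 16.8%, with 11 of 12 pairs. The order was less regular at 3 bp (6 of 8 pairs) and 5 bp (4 of 6). From 6 bp on lengths overlapped as much or more: at 6 bp the 3′ ends overlapped by 40.9 ± 14.3% and lengths by 41.2 ± 16.2%, with the 3′ ends ahead in 5 of 15 pairs. At 8 bp they were ahead in 3 of 11 pairs, at 9 bp in 4 of 13 and at 11 bp in 1 of 6. At 12 bp the values were 14.1 ± 5.79% and 38 ± 18.2%, with 0 of 6. Pairs share reads of one hotspot and library, so they are a description and not independent replicates.

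A pair of cuts beside NCP1 had 3′ ends in common and different lengths, which was not typical of its distance: at 10 bp the 3′ ends overlapped by 29.7 ± 26.6% and lengths by 34.5 ± 11.6%, with the 3′ ends ahead in 1 of 3 pairs. Besides VIII 190328, the top strand was cut 10 bp further on, at 190338, a position chosen after its values were seen. Of 449 reads that began at 190328, 278 ended from 190362 to 190365 (61.9%, 57.3 to 66.3%, runs 58.3 to 64.4%). Of 748 reads that began at 190338, 371 ended in the same 4 bases (49.6%, 46 to 53.2%, runs 33.7 to 61.7%). From 190328 these ends give oligos of 35 to 38 nt. Among oligos from 190338 with these ends, 28 nt (168 reads), 27 nt (121) and 26 nt (60) led. Among all oligos from 190338, however, 33 nt was second with 147 reads. A further end at 190369 to 190370 took 10.5% of reads from the first cut and 28.7% from the second (runs 4.81 to 23.4% and 15.7 to 41.7%), as oligos of 42 and 43 nt or 32 and 33 nt. In FIDXMPL this further end took 41.7% of reads from the second cut, more than the 33.7% that ended from 190362 to 190365. The share of 33 to 40 nt was 87.1% at the first cut and 33.5% at the second. Over the genome, 50.2% of the 33 to 40 nt reads ended at a base and strand where a 25 to 32 nt read also ended.

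The 5′ ends of the class on opposite strands were most often a few positions apart. Counts of 5′ ends on the 2 strands were multiplied at every offset from −50 to 50 and divided by the median over offsets. The product peaked at an offset of 2 (bottom-strand position minus top-strand position), at 5.49 times the median for 33 to 40 nt reads and 7.98 times for 25 to 32 nt reads. Offset 3 followed with 4.44 and 4.55 times. Offset 2 was the best in 4 of 4 runs for both classes (4.89 to 5.83 times for the long reads and 6.04 to 8.80 times for the modal ones). By chromosome, offset 2 was the best for the class on 9 of 16 chromosomes (5.49 ± 1.57 times at that offset, SD, n = 16) and for the modal class on 15. For the class the best offset was 3 on II, X and XIII and 4 on VI. It lay far from 2 on III (−42, 13.6 times, against 3.97 times at 2), VIII (13, 6.65 times) and IX (−16, 5.64 times). When 33 to 40 nt reads of the top strand were set against 25 to 32 nt reads of the bottom strand, the peak was again at 2, with 7.21 times. The reverse pairing gave 6.41 times.

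Smaller maxima stood at several larger offsets. With identical intervals left out, products for the class were 1.63, 1.42, 1.59 and 1.54 times the median over offsets of 15 to 60 at offsets 32, 33, 34 and 35. They were 0.995 times at 31 and 0.804 times at 40, then 1.16 times at 42. In the runs offset 34 gave 1.41 to 1.61 times and offset 41 0.723 to 0.875 times, so these did not overlap. Reads of 25 to 32 nt gave 0.908, 1.03, 1.31 and 1.08 times at 32 to 35. At other offsets they reached 1.57 times (19), 1.54 times (21) and 1.42 times (27), so excesses of this size were not particular to the class. Offset 22 reached 1.45 times for the class and offsets 27 and 28 1.30 and 1.31 times, so 32 to 35 did not stand alone. Counting each length once per run lowered the values at 32 to 35 to 1.38, 1.22, 1.20 and 1.24 times, and then offsets 21 (1.31 times), 27 (1.30 times) and 20 (1.25 times) lay above those at 33 to 35.

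Reads with exactly the same interval on opposite strands were in excess at every length of the class. Products of top-strand and bottom-strand reads of one length were highest at a shift of 0, at 5.67 times the median over shifts of −20 to 20 (5.17 times for 25 to 32 nt). That shift led in 4 of 4 runs, with 4.31, 4.93 and 5.11 times in FFA0GWK, FE8RWPF and E8YXO9P and 10.0 times in FIDXMPL. By chromosome it led for the class on 15 of 16, while on III a shift of 19 was highest (8.98 times, against 3.5 times at 0). Among 331 intervals of the class with at least 30 reads, 128 (38.7%) had reads on both strands, and the less used strand held 4.45% of their reads. For 25 to 32 nt the figures were 2211 intervals, 37.3% and 4.52%, so the classes hardly differed. How far a strand assigned wrongly contributes was not tested.

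A smaller excess at a shift of 3, which does not depend on how the start is counted, was seen at some lengths of the class. It was 1.86 times the median at 33 nt and 1.69 times at 34 nt, against 0.913 times at 32 nt and 1.13 times at 26 nt. It was 1.25 times at 35 nt, 1.12 times at 36 nt and 0.821 times at 37 nt, but 1.27 times at 38 nt (runs 0.951 to 2.24 times), 0.726 times at 39 nt and 1.05 times at 40 nt, so it did not change evenly with length. At 34 nt the runs gave 1.53 to 2.17 times, while at 33 nt they spread from 0.836 to 2.57 times. With each length counted once per run, 33, 34 and 35 nt gave 1.32, 1.43 and 1.26 times. The class as a whole then gave 1.25 times, while 25 and 26 nt gave 1.20 times each. Just beyond the class the same shift reached 3.88 times at 41 nt (runs 1.8 to 9 times) and 5.32 times at 44 nt (runs 2.33 to 7.88 times). It was 2.32 times at 42 nt, and with each length counted once per run 2.03 times at 41 nt and 3.35 times at 44 nt. A shift of 2 was also high there, with 4.07 times at 44 nt. At 45 nt a shift of 2 gave 6.14 times and a shift of 3 gave 2.95 times. With every read counted, a shift of 3 gave 1.42 times for the class as a whole (runs 0.990 to 1.71 times). For 25 to 32 nt it gave 0.931 times (runs 0.871 to 0.929 times). By chromosome the value of the class was uneven, from 0.745 times on V to 4.68 times on XIII, with 1.86 times on IX the next highest. Values at single lengths were not split by chromosome, so how far XIII carries those at 33 and 34 nt was not tested. The 3′ ends of the class coincided with opposite-strand 5′ ends of reads of any length at 1.95 times the median, against 2.37 times for the modal class.

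Within hotspots, long oligos pointed towards the summit, the point of highest smoothed density, more often than modal ones. Reads whose strand ran towards the summit made up 51.4% of 33 to 40 nt reads and 48.2% of 25 to 32 nt reads, a difference of 3.20 points (3.01 to 3.38 points, 3.05 to 3.65 in the runs). The contrast was concentrated near the summit. At 25 to 50 bp from it, 54.6% of the long reads faced in (runs 53.7 to 55.4%), and 47.7% of the modal reads did (runs 46.4 to 48.5%), so the runs did not overlap. At 150 to 200 bp the values were 48.4% (runs 47.3 to 50.5%) and 49.1% (runs 48.6 to 50.4%), and there the runs overlapped. Further out the modal reads led. At 200 to 300 bp, 45.95% of the long reads faced in (45.31 to 46.60%), and 47.76% of the modal reads did (47.38 to 48.14%). In every run the share of 33 to 40 nt was lower there among inward-facing than among outward-facing reads. From 300 to 2000 bp the values were 47.78% (47.24 to 48.33%) and 48.39% (48.07 to 48.71%), so these intervals overlapped.

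Seen as a share, 33 to 40 nt made up 29.7% of inward-facing reads at 25 to 50 bp (29.4 to 29.9%) and 24.2% of outward-facing ones (24 to 24.5%). This difference of 5.43 points was 4.74 to 6.04 in the 4 runs and positive on 15 of 16 chromosomes (5.54 ± 2.57 points, SD, n = 16). Over all distances it was 2.47 points, positive on 16 of 16 chromosomes (0.177 to 5.06 points). With each length counted once per run the 2 differences were 4.69 and 2.18 points. When the side was judged from the middle of the hotspot instead of the summit, the 3.20 points became 1.52. Among the single positions above, 54 of 93 with mostly long reads faced in (58.1%, 47.9 to 67.6%), while 139 of 333 with under 10% long reads did (41.7%, 36.6 to 47.1%). Over all 977 such positions 476 faced in (48.7%), which lies inside the first interval. Both classes were spread alike about the summit, with a median distance of 41 bp for the long and 39 bp for the modal reads. Within 10 bp of the summit the share was lowest, at 24.7%, which was 2.24 points under that at 25 to 50 bp (2.00 to 2.47 points).

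Differences in share by hotspot strength and width were small with every read counted and larger under some other settings. Hotspots were split by oligo count into 10 groups of equal number. The share went from 25.8% in the weakest group (21 to 59 oligos) through a low of 24.8% (88 to 124 oligos) to 26.6% in the strongest (1194 to 10255 oligos). The strongest group exceeded the weakest by 0.705 points (−0.0555 to 1.45 points). Among runs only E8YXO9P had an interval clear of 0 (3.12 points, 1.44 to 4.73), and without that run the difference was 0.107 points (−0.748 to 0.946 points). With each length counted once it was 4.29 points (3.41 to 5.14 points), with hotspots ranked by reads of other lengths 2.49 points (1.83 to 3.13 points), and with a hotspot threshold of 5 times the mean 1.77 points (1.08 to 2.45 points). Of 5 groups by width, the narrowest (25 to 127 bp) had a share of 25.2% and the widest (378 to 2040 bp) 26.6%, a difference of 1.34 points (0.875 to 1.79 points). It was 0.109 points in FIDXMPL (−0.828 to 1.03 points) and 0.858 to 2.93 points in the other runs, and 3.70 points (3.16 to 4.23 points) with each length counted once. Counting each length once levels the classes where reads are many, since it allows at most 8 reads of either class per position, strand and run. Values so counted therefore do not tell whether the share rises with strength or width. Among the strongest of 3 groups by strength, the share was 25.8% (25.6 to 25.9%) for widths of 239 to 378 bp and 26.6% (26.5 to 26.7%) for the widest. In FIDXMPL these 2 values were 27.06 and 27.07%. Among the middle group by strength the share went from 24.7% at 137 to 183 bp to 26.5% for the widest. The weakest group showed no such rise, with 25.2%, 25.6% and 24.9% from its narrowest to its widest hotspots.

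Outside hotspots the share was higher, 28.8% (28.6 to 29%) against 26.1% inside (26 to 26.2%). The difference of −2.68 points (inside minus outside) lay between −3.73 and −1.75 in the runs. It did not hold when each length was counted once per run and position, which gave 0.310 points. That counting allows at most 8 reads of either class per position, strand and run, so it levels the classes where reads are many. Of the 33 to 40 nt reads 88.8% lay in hotspots, and of the 25 to 32 nt reads 90.1%.

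Individual hotspots differed far more than these groups. Among 354 hotspots with at least 1000 reads of 25 to 40 nt, the share was 26.3 ± 4.28% (SD), where counting error alone would give an SD of 1.10 points, and it ran from 14.5 to 46%. In 82 of them (23.2%) the share was above that over all hotspots in 4 of 4 runs, and in 79 (22.3%) it was below in 4 of 4. Shares of 352 hotspots correlated between runs at 0.533 to 0.673. With each length counted once per run, 442 hotspots with at least 500 reads had a share of 30.6 ± 3.01% against a counting SD of 1.65 points, and runs correlated at 0.407 to 0.454.

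The 6 hotspots with the highest and the 6 with the lowest share were taken from those sets, so their values describe the choice and are not a test. Highest was a hotspot between ERG28, of sterol synthesis, and MEI4, whose product is part of the break machinery (V, 238091 to 238388). It had 615 of 1336 reads in the class (46%, runs 35.4 to 57.7%). DSE1 and the ubiquitin ligase gene RSP5 flanked a hotspot with 39.6% (V, 409367 to 409693, runs 36.8 to 41.1%). INO2, an activator of phospholipid synthesis genes, and YDR124W flanked one with 39.0% (IV, 699505 to 699924, runs 34.4 to 43.8%).

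CMI8 and the mitochondrial ribosomal protein gene MRPL28 followed with 36.5% (IV, 1385761 to 1386035). The hotspot between the retrotransposon frame YCL019W and LEU2, of leucine synthesis, had 36% (III, 90743 to 91240). By the genotype above, the native leu2 gene was replaced with hisG, and LEU2 was placed at his4X and at nuc1. Reads from those copies would map to this place, and the list does not tell the loci apart. BUD23 and ARE1 flanked one with 36% (III, 211566 to 212426, 1669 of 4640 reads), which holds the position with most 33 to 40 nt reads described above.

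Lowest was the hotspot between DPI8 and MRS3, a mitochondrial iron carrier gene (X, 159834 to 160465), with 235 of 1620 reads in the class (14.5%, runs 13.8 to 15.5%). UGX2 and SFA1, an alcohol and formaldehyde dehydrogenase gene, flanked one with 16% (IV, 158768 to 159029, runs 13 to 19.4%). AIM6 and the phosphatase gene PHO13 had 16.2% (IV, 31998 to 32282), and ECM7 and GMC2, a meiotic synapsis gene, 16.5% (XII, 1023957 to 1024240). ERG24, of sterol synthesis, and PRM1, of mating cell fusion, had 16.5% (XIV, 110541 to 110841). An unnamed hotspot on XI (80542 to 81046) had 16.9%.

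Among the 10 strongest hotspots the share was mostly near the average. It was above the overall share in 4 of 4 runs at YMR265C and RSN1 (33.6%, runs 30.5 to 36.4%), SRB2 and NCP1 (32.9%, runs 28.0 to 36.2%), FRS2 and GAT1 (28.2%, runs 26.6 to 30.9%), and YAP1801 and MPC2 (27.4%, runs 26.7 to 27.9%). GAT1 encodes an activator of nitrogen genes and its hotspot is the strongest of all, with 2312 of 8191 reads in the class. The share was below in 4 of 4 runs at ERG1, the squalene epoxidase gene, and ATF2 (23.9%, runs 20.5 to 26.4%). The other 5 did not keep to one side in all runs: SND1 and CCT6 had 25.4%, EST3 and FAA3 25.9%, YIL012W and TIR3 26.2%, LEU4 and MET4 26.8%, and SPR3 and ERG25 27.3%.

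Genes long studied for their breaks spanned much of the range. CYS3, of cysteine synthesis, had 29.7% in the hotspot on its 5′ side (874 of 2942 reads, runs 24.9 to 32.6%), above the overall share in 4 of 4 runs. DEP1, a histone deacetylase subunit gene next to it, had 26.8% (529 of 1973 reads). ARG4, of arginine synthesis, had 20.7% (310 of 1496 reads, 18.7 to 22.8%, runs 15.3 to 26.8%) and was below in 4 of 4 runs. Its neighbour DED81, an asparaginyl-tRNA synthetase gene, had 23.7% (264 of 1112 reads). HIS4, of histidine synthesis, had 17.0% but only 141 reads (11.7 to 24.1%), and the strain carries LEU2 at this locus. THR4, of threonine synthesis, had 32.4% of 442 reads (28.2 to 36.9%). HIS2 had 2 hotspots on its 5′ side with 23.5% of 388 reads and 29.8% of 332, and FUS1, a mating gene, had none. Weaker second hotspots of 115 and 45 reads lay in the gaps of BUD23 and CCT6.

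Shares by gene orientation lay close together. The share was 26.1% in 1389 hotspots assigned to gaps between divergent genes, 26.2% in 1880 of tandem gaps and 25.9% in 140 of convergent gaps. Divergent minus tandem was −0.136 points (−0.284 to 0.012 points) and convergent minus tandem −0.373 points (−0.881 to 0.141 points). In the runs the first of these went from −0.470 to 0.257 points. Its sign turned with each length counted once (0.323 points, 0.125 to 0.521 points), and without E8YXO9P it was −0.231 points (−0.395 to −0.0656 points). Hotspots with their summit outside every gap had 26.9% (26.6 to 27.1%, 304 hotspots), against 26.1% for those with the summit in a gap (3105). The first group takes in summits inside genes and any beyond the outermost genes of a chromosome. In tandem gaps, reads that ran in the direction of transcription made up 49.8% of the long class (49.5 to 50.02%) and 48.2% of the modal class (48.1 to 48.4%). The runs gave 48.65 to 50.21% and 47.74 to 48.78%, so they overlapped.

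Chromosomes were also much alike, with a share of 26.4 ± 0.502% (SD, n = 16). Chromosome III was highest at 27.4% (26.9 to 27.8%, runs 24 to 29.3%) and chromosome I lowest at 25.3% (24.9 to 25.7%, runs 23.0 to 27.1%). On chromosome III the hotspot of BUD23 and ARE1 alone held 1669 of 10907 reads of the class. It held 4640 of 39858 reads of 25 to 40 nt, and the rank of the chromosome without it was not examined. Share and chromosome length had a Pearson r of 0.21 and a Spearman rho of 0.29 over the 16 chromosomes, given as a description. Towards the ends the share was not even: it was 27.7% within 20 kb of an end (27.0 to 28.4%), 25.2% at 20 to 40 kb and again at 40 to 80 kb, and 26.7 and 26.6% at 80 to 120 kb and beyond.

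The terminal 20 kb exceeded the rest by 1.36 points (0.642 to 2.08 points), on 4168 reads of the class among 15035. The difference was 0.203 points in FE8RWPF (−1.10 to 1.54 points) and 1.75 to 2.32 points in the other runs. Chromosome VI supplied 23.1% of these terminal reads, and without it the difference was 1.82 points. Among 15 chromosomes with at least 100 terminal reads, the terminal share was higher on 10, from −3.15 points on IX to 7.49 points on XVI. With a limit of 40 kb the difference was −0.760 points, and with each length counted once −0.157 points. The zone of 20 to 80 kb lay 1.35 points under the chromosome interior (1.17 to 1.53 points).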

How the data were processed

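Diploid SK1 yeast was grown at 30 °C, and Spo11 oligos were tailed with ribo-G, ligated, amplified, selected as PCR products on a gel and sequenced by pyrosequencing, per the labels. Both gel selection and unique mapping can favour some lengths, so shares describe listed reads. The deposited list gives one score per read, which the authors left without a stated normalisation, and start, end and strand per the file headers. Neither aligner nor genome build is given in the sources used here. The deposited curated map has no lengths and was not used.

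Runs were read from the first 7 characters of read names. Hotspots were called from 5′ ends of all lengths with a Hann window of 201 bp, at least 2.3 times the mean over 12 Mb, merging gaps up to 200 bp, with at least 25 bp and at least 10 RPM (oligos scaled to a fixed library size), and kept fixed except under a stricter threshold tried as an alternative. Right chromosome ends were taken as the last listed base. Gene gaps came from a RefSeq table of assembly R64, used for names and orientation on 15 chromosomes, without XI, where the list and the table are out of register. No genome of the build of the list was used, so no oligo sequences are printed.

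Named hotspots were the 10 with most oligos, the 6 highest and 6 lowest shares among those with at least 1000 reads of 25 to 40 nt on one side of the overall share in 4 of 4 runs, and 12 genes long studied for breaks. Named positions were the 5 with most reads of the class. Members and lists were chosen with earlier results of these data known. The strand offset, interval shift, width and inward-facing measures were checked on simulated reads, and the others were not. Measures were also recomputed with other length classes, thresholds, counting rules and runs left out. Python 3.11.15, numpy 2.4.6 and pandas 2.3.3 were used.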

Additional observations from a re-analysis of the deposited data

Results flagged for a closer look

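Run FIDXMPL stood apart from the other 3 runs in 3 of the 10 measures, judged by its gap to the nearest run as a fraction of the range. Chance puts about 1 in 20 such groups past this limit, and the measures share reads. For 33 to 40 nt reads, identical intervals on opposite strands reached 10.0 times the median in FIDXMPL and 4.31 to 5.11 times in the others. The coincidence of 3′ ends with opposite-strand 5′ ends, which the same read pairs enter, was 2.43 times in FIDXMPL and 1.78 to 1.89 times in the others. The excess of inward-facing reads among long over modal oligos was 3.65 points in FIDXMPL and 3.05 to 3.13 points in the others. No label says which dataset this run holds, and no cause was tested.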

How the results depend on the processing

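No paired analysis was possible because the list pools all datasets and ties no read to a replicate. Counting each length once per run, position and strand gave a share of 29.5% (26.4% as reported), an interval-shift peak of 3.66 times, strength and width differences of 4.29 and 3.70 points and an inward-facing difference of 2.61 points. It turned the divergent minus tandem difference to 0.323 points, the difference inside minus outside hotspots to 0.310 points and the terminal one to −0.157 points. Classes of 34 to 41 and 26 to 33 nt gave a share of 22.4% and an inside minus outside difference of −3.25 points. Lengths of 33 to 36 against 29 to 32 nt gave 31.6% and, for inside minus outside, the terminal 20 kb and inward facing, −2.40, 0.546 and 2.35 points. A hotspot threshold of 5 times the mean gave 1.77 points for strength and −1.31 points for inside minus outside. Ranking hotspots by reads of 12 to 24 and 41 to 76 nt gave 2.49 points for strength. A limit of 40 kb gave −0.760 points for the ends, and judging sides from the middle of the hotspot gave 1.52 points for inward facing. Leaving out 1 run at a time gave shares of 25.9 to 27.3% and inside minus outside differences of −3.02 to −2.29 points. Leaving out chromosome VI, chosen after the data were seen, kept the terminal difference within its interval. Apart from the construction of the once-only counting, the cause of these shifts was not tested. Values at single positions rest on 100 or more reads and small terminal counts limit the chromosome ends.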
